A study of Mus musculus with 6 samples.

Results

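The genes of glucose use form a connected set of 36, chosen by name and by step of the pathway from the 45706 genes of the count table. They cover glucose uptake, glycolysis, lactate handling, the kinases that hold back pyruvate oxidation, the pentose phosphate pathway and glycogen. RNA was sequenced from 3T3-L1 cells, a mouse embryo fibroblast line that turns into adipocytes in culture, on day 7 of differentiation. It was induced with IBMX, insulin, dexamethasone and rosiglitazone. After 3 days this mixture gave way to medium with insulin alone, and differentiated cells were then kept in complete medium. Scrambled control cells (n = 3) carried a scrambled shRNA, and RBMS1 knockdown cells (n = 3) carried an shRNA against Rbms1, which codes for an RNA-binding protein. Both shRNAs were stably expressed, and according to the methods the knockdown cells were made with a lentivirus and selected with puromycin. The model is therefore a selected, transduced cell line in which some Rbms1 RNA remains. The methods call the samples biological replicates but do not say whether they came from separate transductions, so that the p-values measure the spread between these samples.

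Glucose enters fat cells through the transporters GLUT1 (Slc2a1), present in most cells, and GLUT4 (Slc2a4), which insulin moves to the cell surface of fat and muscle. Hexokinase traps it as a sugar phosphate. From there it goes down glycolysis to pyruvate, aside into the pentose phosphate pathway, which supplies the NADPH that fat synthesis uses, or into glycogen. In adipocytes glycolysis also supplies the glycerol backbone of stored fat.

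Total counts ranged from 3142695 to 11073098 per sample, with the fewest in control replicate 2 and the most in knockdown replicate 3. Genes derived from ribosomal RNA took 43.0% of the counts of control replicate 2 and between 8.12% and 17.8% elsewhere. Levels are given as CPM, the counts scaled to a common library size with TMM factors, and fold changes, as log2 of knockdown over control with their standard error (SE), come from edgeR's quasi-likelihood test. A gene was called at a Benjamini-Hochberg adjusted p of 0.1 or less over 11440 tested genes. Of these, 1.22% were called, 104 lower and 36 higher in the knockdown. With library sizes alone as the scaling, 33.3% of the calls were lower in place of 74.3%. Rbms1 itself stood at 113, 101 and 99.4 CPM in the controls and at 49.0, 61.2 and 83.8 CPM in knockdown replicates 1, 2 and 3. Its groups did not overlap, with a log2 fold change of -0.69 (SE 0.20, edgeR adjusted p = 0.185) that did not pass the threshold. For the protein, the authors report the knockdown by immunoblot.

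Of the 36 genes, 34 were tested. Aldoc, a brain-type aldolase, had no count in any sample, where a floor of 3 counts allows between 0.220 and 1.49 CPM. Slc16a3, a lactate exporter of glycolytic cells, had 21, 1 and 13 counts in the controls and 8, 5 and 5 in the knockdown samples, too few to be tested. Of the 34, 1 was called (2.94%). That gene was Ldhb, which was lower in the knockdown, as were 0.909% of all tested genes by the same rule. DESeq2 called Ldhb and Tkt, against 3.2% of the genes it tested. The groups did not overlap in 4 of the 34 (11.8%), namely Ldhb, Pdk2, Tkt and Pygl, against a background of 18.5%. An unadjusted edgeR p under 0.05 was reached by 6 (17.6%), against 12.4% of all genes. With all 6 samples, single genes therefore passed about as often here as elsewhere in the transcriptome. Without knockdown replicate 1, 14 of 35 were called by edgeR, against 5.94% of all genes. The fold changes were below 0 in 27 of 34, against 49.6% of all genes, with a median of -0.19 beside 0.0044 over all genes. With library sizes alone the median of all genes moved to 0.37 and that of the 34 to 0.16, so that 13 were below 0 and 27 were below the median of all genes. Without knockdown replicate 3, 18 of 35 were below 0 and 18 were below the median of all genes.

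Most of these genes varied in the same way within the knockdown group. Relative to the mean of the controls, their median log2 level was 0.08, -0.05 and -0.04 in the control samples and 0.19, -0.38 and -0.91 in knockdown replicates 1, 2 and 3. Over all tested genes the same medians lay between -0.0078 and 0.013. Summed over the list, the level was 14553, 13208 and 12357 CPM in the controls and 15478, 8953 and 6241 CPM in the knockdown samples. Knockdown replicate 1 was thus above every control, and replicates 2 and 3 were below every control. Replicate 3 was the lowest of all 6 samples for 24 of 34 genes (70.6%), against 16.3% of all genes. Replicate 1 was the highest knockdown sample for 28 (82.4%), against 37.3%, and the highest of all 6 samples for 17 of 34, against 19.4%. Replicate 1 was highest and replicate 3 lowest of the knockdown samples for 24 (70.6%), against 20.0%. Replicates 2 and 3 were both below every control for 23 genes (67.6%), against 17.6%, and with replicate 1 not below them for 20 (58.8%), against 8.09%. The list thus followed 1 order of the knockdown samples more often than genes at large. At least 2-fold more in replicate 1 than in replicate 3 was found for 20 genes (58.8%), against 4.76%, and the median log2 ratio between these 2 samples was 1.12 for the list and 0.0068 for all genes with counts in both. This order was the reverse of that of Rbms1, whose RNA was lowest in replicate 1 and highest in replicate 3. These are counts over single samples, with no test, and the split was described after the values were seen.

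**Figure D1:**
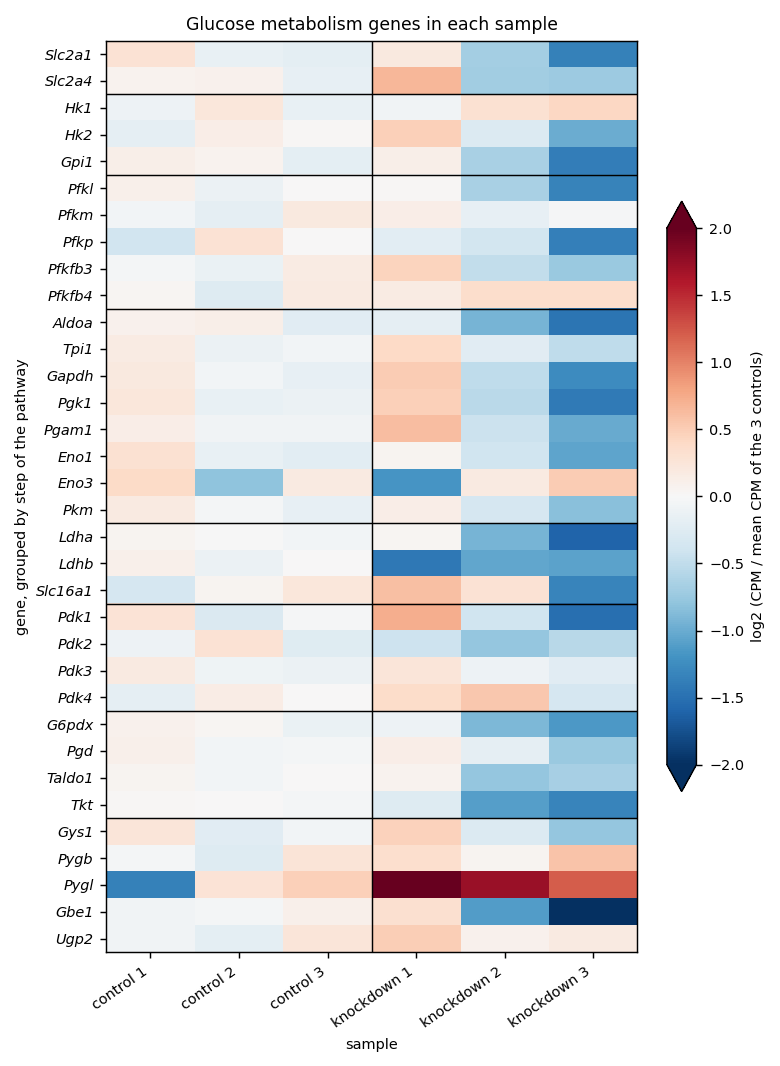
Log2 of each gene's CPM over the mean of the 3 controls, for the 34 tested genes (rows, ordered by step of the pathway, with black lines between steps) in the 6 samples (columns). Blue marks lower and red higher levels. The column of knockdown replicate 3 is the lowest of its row for 24 genes, while the column of knockdown replicate 1 is near or above the controls for most. Ldhb is low in all 3 knockdown samples, and Pygl is high in all 3.

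Markers of cell types also differed between the knockdown samples, but the order of their sums was not that of the glucose genes. All 8 adipocyte markers (Adipoq, Fabp4, Plin1, Pparg, Cebpa, Cidec, Cfd and Lipe) were detected, and their summed level was between 9389 and 10949 CPM in the controls and 10331, 5976 and 7670 CPM in knockdown replicates 1, 2 and 3. All 8 markers of fibroblasts and preadipocytes (Dlk1, Col1a1, Col1a2, Col3a1, Pdgfra, Thy1, Vim and Fn1) were detected too, with a summed level of 12224 to 14540 CPM in the controls and of 8147, 16612 and 16724 CPM in the knockdown samples. In sum, knockdown replicates 2 and 3 were thus lower in adipocyte and higher in fibroblast markers than every control, and replicate 1 was lower in fibroblast markers. Single markers did not all follow these sums. Of the adipocyte markers 6 of 8 were below every control in both replicates 2 and 3, against 17.6% of all genes, with Adipoq and Fabp4 not. Of the fibroblast markers 4 of 8 (Col1a2, Thy1, Vim and Fn1) were above every control in both, whereas Dlk1 and Pdgfra were below every control. The share of all genes above every control in both was not counted. The higher sum rested mainly on Col1a2, at 2814 to 3345 CPM in the controls and 4668 and 5575 CPM in replicates 2 and 3, and Fn1, at 2192 to 3082 CPM and 4219 and 4044 CPM. The fitted fold changes were below 0 for 8 of 8 adipocyte and 6 of 8 fibroblast markers, against 49.6% of all genes. With library sizes alone they were below 0 for 5 and 2. None of these 16 was called, against 1.22% of all genes. Markers of skeletal muscle (at most 5.84 CPM in sum, with Ckm, Myh4 and Myog at 0), macrophages (at most 9.30 CPM, with Ptprc and Adgre1 at 0) and endothelium (at most 1.98 CPM, with Kdr and Tie1 at 0) were near or at 0. The part of the share of fat cells, or of the depth of replicate 3, in the values of the glucose genes was not tested. In bulk RNA, fewer cells of a type and less RNA per cell cannot be told apart.

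Without knockdown replicate 1 the same test called 14 of 35 genes, all lower in the knockdown, against 5.94% of all genes (3.63% lower). The median of the list was then -0.68. Those called were Slc2a1, Slc2a4, Gpi1, Pfkl, Pfkfb3, Aldoa, Pgk1, Pgam1, Ldha, Ldhb, G6pdx, Taldo1, Tkt and Gbe1. Without knockdown replicate 3, Ldhb alone was called, lower in the knockdown, against 0.997% of all genes (0.696% lower), and the median was -0.0085. Without any 1 of the controls none was called, with the adjusted p of Ldhb between 0.106 and 0.132; 12 genes in all were called without control replicate 2 (0.101%), 21 without replicate 1 and 32 without replicate 3. Which knockdown samples entered thus decided how many of these genes were called.

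**Figure D2:**
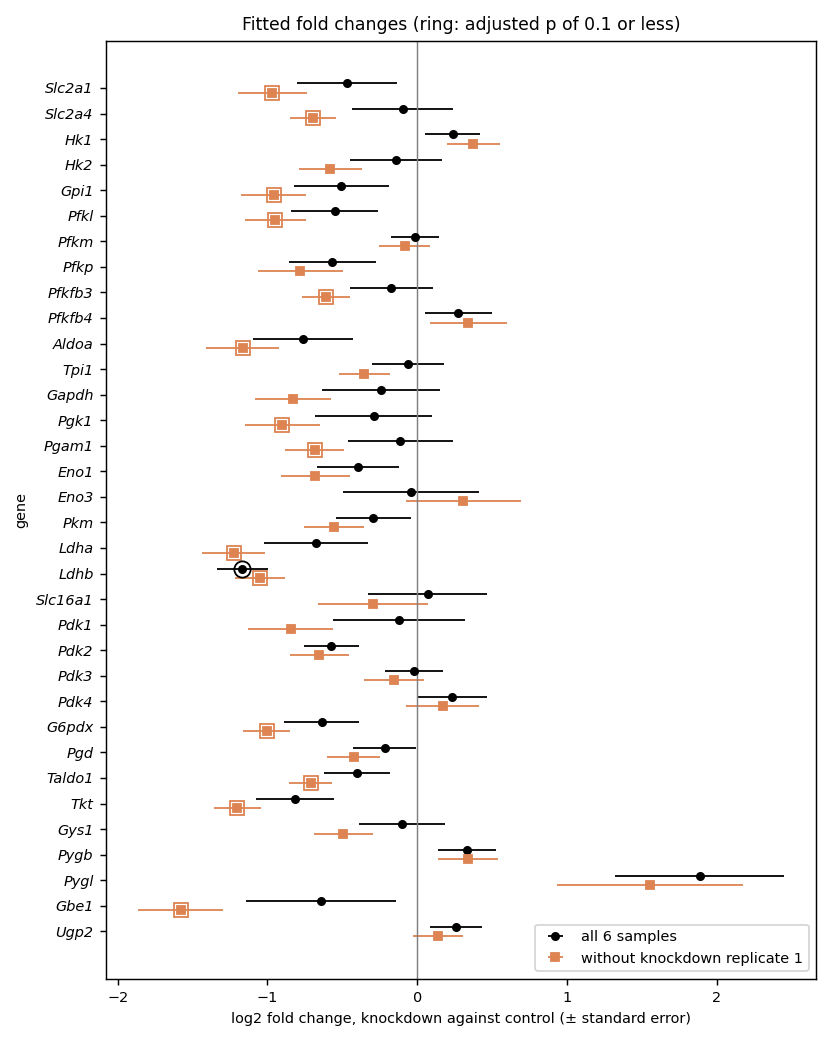
Log2 fold change of knockdown against control with its standard error for the 34 tested genes, from all 6 samples (black circles) and without knockdown replicate 1 (orange squares). Rings mark an adjusted p of 0.1 or less, which was reached by Ldhb in the first fit and by 14 genes in the second, among them Gbe1 at -1.58, Ldha at -1.23 and Tkt at -1.20.

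Both glucose transporters were measured well. Slc2a4 was the more abundant, at 77.1 CPM per kb of transcript in the controls beside 31.4 for Slc2a1. Its level was 204, 206 and 174 CPM in the controls and 307, 121 and 118 CPM in the knockdown samples. Replicate 1 was higher than every control and the other two were lower, and the log2 fold change was -0.10 (SE 0.34, edgeR adjusted p = 0.937). Slc2a1 stood at 125, 92.1 and 89.6 CPM in the controls and at 118, 64.0 and 40.2 CPM in the knockdown samples (log2 fold change -0.47, SE 0.34, adjusted p = 0.620). The ratio of Slc2a4 to Slc2a1 was 1.63, 2.23 and 1.94 in the controls and 2.61, 1.88 and 2.94 in the knockdown, so that the balance between them overlapped between the groups. This ratio was 1 of 11 between isozymes or opposed enzymes that were compared within each sample, which no scaling of the library changes. In none of the 11 did the groups separate, with exact permutation p-values (two-sided, 3 against 3 samples, 20 arrangements) from 0.2 to 1 and adjusted values of at least 0.629, in a design whose smallest p is 0.1.

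Of the hexokinases, Hk2, the insulin-responsive form of fat and muscle, was read at 213, 266 and 248 CPM in the controls and at 336, 200 and 122 CPM in the knockdown samples. Hk1, the housekeeping form, did not follow it, at 41.3, 52.0 and 40.2 CPM in the controls and 42.3, 55.0 and 59.2 CPM in the knockdown. The ratio of Hk2 to Hk1, between 5.10 and 6.16 in the controls, was therefore 7.94, 3.64 and 2.06 in the knockdown samples, which lay on both sides of the control range (exact permutation p = 0.5). Gpi1, the isomerase that makes fructose phosphate, had the highest level per length of this step. It was at 466, 453 and 377 CPM in the controls and at 469, 277 and 165 CPM in the knockdown samples, with a log2 fold change of -0.51 (SE 0.32, edgeR adjusted p = 0.562).

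Phosphofructokinase commits sugar to glycolysis, and its liver form Pfkl led in these cells, at 80.1 CPM per kb beside 28.2 for the platelet form Pfkp and 23.7 for the muscle form Pfkm. Pfkl was at 322, 275 and 299 CPM in the controls and at 303, 190 and 118 CPM in the knockdown samples (log2 fold change -0.55, SE 0.29, edgeR adjusted p = 0.484). Pfkm stayed between 60.4 and 78.6 CPM in all 6 samples. As a result the ratio of Pfkm to Pfkl was 0.205, 0.221 and 0.263 in the controls and 0.246, 0.320 and 0.572 in the knockdown (exact permutation p = 0.2). The bifunctional enzymes that set the level of the activator of phosphofructokinase were split in the same way. Pfkfb3, at 31.3 CPM per kb the main form, was 2.27-fold higher in knockdown replicate 1 than in replicate 3. The scarce Pfkfb4 was at 8.42 to 11.5 CPM in the controls and at 11.3 to 12.9 CPM in the knockdown.

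The 8 tested genes of the list in lower glycolysis, which turn the split sugar into pyruvate, all had fold changes below 0 (with library sizes alone Tpi1, Gapdh, Pgk1, Pgam1, Eno3 and Pkm were above 0), against 49.6% of all genes, and none was called, against 1.22%. Of the isozymes outside the list, Bpgm was at 0.42 and Eno2 at -0.26 (from -0.54 to 0.47 with 1 replicate left out). The summed level of the 8 was 9644, 8527 and 7671 CPM in the controls and 10125, 5742 and 3791 CPM in the knockdown samples. Aldoa, the main aldolase and the most abundant gene of the list per length (1926 CPM per kb in the controls), stood at 3173, 3221 and 2558 CPM in the controls and at 2624, 1567 and 1082 CPM in the knockdown. Its groups overlapped by 1 sample of each, and its log2 fold change was -0.76 (SE 0.33, edgeR adjusted p = 0.391). Gapdh, often used as a reference gene, was at 2589, 2156 and 2007 CPM in the controls and at 3189, 1578 and 943 CPM in the knockdown samples. Its level thus differed 3.38-fold between knockdown replicates 1 and 3, against 1.29-fold between the highest and the lowest control. Pgk1, which makes ATP in glycolysis, differed 3.68-fold, Pgam1 3.09-fold, Eno1 2.15-fold, Pkm 1.95-fold and Tpi1 1.88-fold between the same knockdown samples. Eno3, the muscle enolase, was the exception, at 2.97 to 6.72 CPM in the controls and 2.29, 5.83 and 7.40 CPM in the knockdown, from as few as 6 counts.

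Several of these genes have near-identical copies elsewhere in the genome (at least 95% identity over at least 200 bases), among which reads can be split. Copies held 28.9% of the reads of Eno1 and its copies, most of them in Eno1b, and 10.2% for Gapdh, most of them in Gm13394. The shares were 1.96% for Ldhb, 1.75% for Gpi1, 1.11% for Pgk1 and under 0.3% for the rest. With the copies added, the log2 ratio of the group means was -0.21 for Gapdh (-0.24 without), -0.40 for Eno1 (-0.40) and -0.29 for Pgk1 (-0.29). Of the copies, Pgk1-rs7 was called, at 7.20, 14.9 and 6.52 CPM in the controls and 1.29, 1.63 and 3.08 CPM in the knockdown (log2 fold change -2.15, SE 0.46, edgeR adjusted p = 0.0954). Without any 1 control, or without knockdown replicate 2, that call was lost (adjusted p from 0.206 to 0.321), as it was, among other settings, with RLE size factors, library sizes alone, limma-voom, GC content and length removed, chromosome medians removed or the earlier quasi-likelihood estimates of edgeR. Eno1b (-0.31, adjusted p = 0.714), Gm13394 (0.10, adjusted p = 0.945) and Pgam1-ps2 (-1.21, adjusted p = 0.529) were not called. With 1 replicate left out, Gm13394 ranged from -0.52 to 0.44. Genes listed for their names as relatives, whatever their identity (Pgam1-ps1, Aldoart1, Aldoart2, Ldha-ps2 and Gapdhs), were at 1.28 CPM or less in every sample.

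The clearest difference between the groups was in Ldhb, the scarcer of the 2 lactate dehydrogenase genes of the list. Ldhb, the heart-type subunit (ENSMUSG00000030246, minus strand of chromosome 6, 142490249 to 142507957, GRCm38), stood at 69.6, 59.4 and 64.7 CPM in the controls and at 24.1, 31.3 and 30.9 CPM in the knockdown samples. Its highest knockdown sample was well below its lowest control, and it fell 2.25-fold (log2 fold change -1.17, SE 0.17, edgeR adjusted p = 0.0310). The adjusted p lay between 2.01e-05 (DESeq2) and 0.247 over all alternatives, and the call was lost with library sizes alone (0.247) and without any 1 control, among other settings. Unlike most genes of the list it was as low in replicate 1 as in the other knockdown samples. Ldha, the muscle-type subunit and the main one here, at 480 CPM per kb beside 49.5 for Ldhb, was at 909, 868 and 838 CPM in the controls and at 894, 455 and 287 CPM in the knockdown (log2 fold change -0.68, SE 0.35, adjusted p = 0.476). The ratio of Ldhb to Ldha, 0.0766, 0.0687 and 0.0773 in the controls, was consequently 0.0270, 0.0688 and 0.108 in the knockdown samples (exact permutation p = 0.8). Slc16a1, a carrier of lactate and pyruvate, was at 49.6, 64.9 and 72.8 CPM in the controls and at 95.1, 76.4 and 25.1 CPM in the knockdown.

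**Figure D3:**
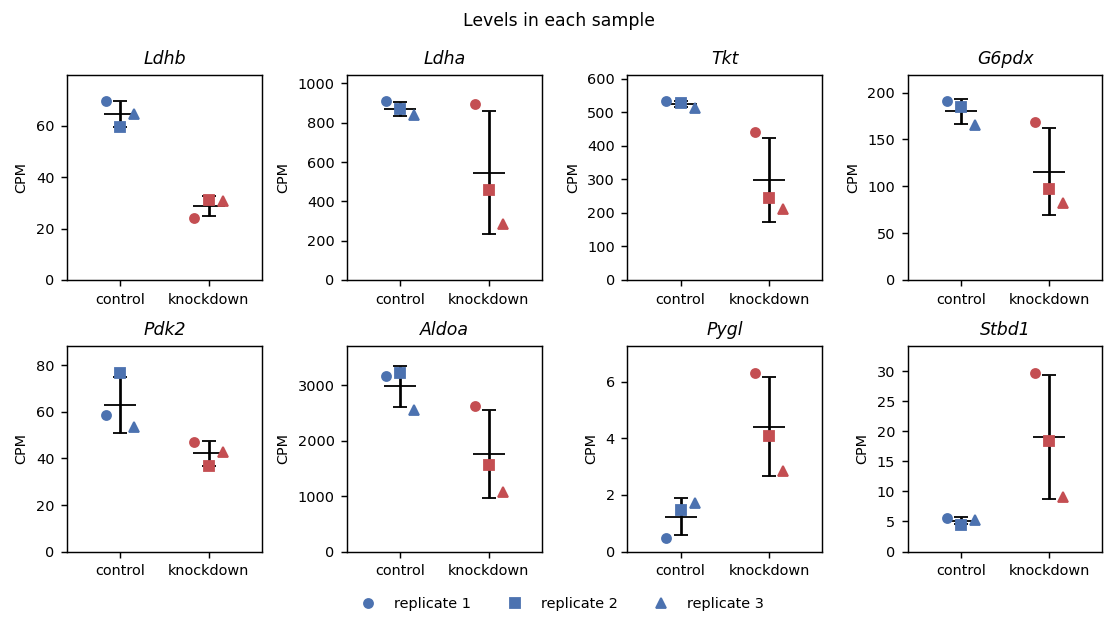
CPM (vertical axes, from 0) in each control (blue) and knockdown (red) sample for the 6 genes of the list with an unadjusted p under 0.05, for Ldha and for the glycogen-binding protein gene Stbd1, with the replicate shown by the symbol. Black bars give the mean and the SD of 3 samples. The 3 knockdown samples of Ldhb lie between 24.1 and 31.3 CPM, all under the lowest control at 59.4, whereas Ldha ranges from 287 to 894 CPM in the knockdown.

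The promoters of Ldha and Pgk1, which differed at least 3-fold between knockdown replicates 1 and 3, and of Ldhb, the called gene, are shown as examples, picked after their values were seen, with the letters ACGTG marked. These letters are the core of the element bound by hypoxia-inducible factors, and they also lie within CACGTG, a palindrome bound by several other factors, which is read on both strands. Each window runs from 250 bases before to 50 after the start annotated by RefSeq (GRCm38.p6), 5′ to 3′ on the gene's strand, with ACGTG or its complement CACGT in capitals. The Ldha window is the first of its annotated promoters (chr7:46845554-46845853, plus strand), that of Pgk1 is chrX:106186850-106187149 (plus strand) and that of Ldhb is chr6:142507908-142508207 (minus strand).
Ldha: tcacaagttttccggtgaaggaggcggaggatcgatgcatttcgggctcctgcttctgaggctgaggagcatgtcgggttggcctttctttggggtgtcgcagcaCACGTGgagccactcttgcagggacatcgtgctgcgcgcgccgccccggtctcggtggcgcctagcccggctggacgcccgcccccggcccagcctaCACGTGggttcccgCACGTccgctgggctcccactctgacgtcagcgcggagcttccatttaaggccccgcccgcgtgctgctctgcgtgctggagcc
Pgk1: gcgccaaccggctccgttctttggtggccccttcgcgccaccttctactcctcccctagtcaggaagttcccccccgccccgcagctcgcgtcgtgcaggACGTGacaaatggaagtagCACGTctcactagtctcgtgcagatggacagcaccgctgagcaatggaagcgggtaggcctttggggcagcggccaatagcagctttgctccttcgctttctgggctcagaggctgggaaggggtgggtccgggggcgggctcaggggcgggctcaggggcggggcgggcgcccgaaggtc
Ldhb: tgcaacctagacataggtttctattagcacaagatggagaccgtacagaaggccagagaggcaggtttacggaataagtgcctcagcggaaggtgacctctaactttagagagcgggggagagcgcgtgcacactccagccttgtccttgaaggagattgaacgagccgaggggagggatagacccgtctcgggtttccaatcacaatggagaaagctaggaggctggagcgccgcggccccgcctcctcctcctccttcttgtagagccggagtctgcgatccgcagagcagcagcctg
On both strands, overlaps included, the letters were found 5 times in the Ldha window, 2 times in that of Pgk1 and 0 times in that of Ldhb. The second annotated promoter of Ldha (chr7:46846832-46847131, plus strand) held them 0 times, as that of Ldhb did. RefSeq gave 51 promoters for 35 of the 36 genes, and 23 of the 51 (45.1%) held ACGTG, in 20 genes. The share was 26.0% over 10765 promoters of tested genes and 19.6% over all 32851 promoters. The letters GGGCGG, known from Sp1 sites, were in 60.8% of the 51, beside 64.3% of the promoters of tested genes and 35.7% of all. No promoter of Gbe1 (6.06-fold between knockdown replicates 1 and 3) or Pdk1 (4.68-fold), which had the widest spread, held ACGTG. Nor did those of Tkt, Gpi1, Pfkl and Taldo1, all lower without replicate 1. Promoters of Pgk1 (3.68-fold), Gapdh (3.38-fold) and Ldha (3.12-fold) did hold it. Whether the letters went with the spread within the knockdown group was not tested. A match of letters is not a bound site, and a window without one says nothing about the factor.

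The pyruvate dehydrogenase kinases switch off the entry of pyruvate into mitochondrial oxidation. Per length, Pdk1 (33.3 CPM per kb in the controls) and Pdk2 (28.0) led, ahead of Pdk3 (12.4) and Pdk4 (12.2). Pdk2 was at 58.8, 76.7 and 53.4 CPM in the controls and at 47.2, 36.7 and 42.7 CPM in the knockdown samples. All 3 knockdown values lay below the lowest control, although the log2 fold change of -0.57 (SE 0.18, edgeR adjusted p = 0.231) did not pass. Pdk1 spread widely instead, at 208, 141 and 169 CPM in the controls and 285, 130 and 61.0 CPM in the knockdown, which is 4.68-fold between replicates 1 and 3 (log2 fold change -0.12, SE 0.44). Pdk3 stayed between 22.3 and 30.8 CPM in all samples. Pdk4, which rises in fasting, was at 37.6 to 47.0 CPM in the controls and at 54.6, 61.6 and 33.5 CPM in the knockdown. The ratio of Pdk4 to Pdk2 was 0.639, 0.614 and 0.801 in the controls and 1.16, 1.68 and 0.786 in the knockdown samples, with 1 knockdown sample inside the control range (exact permutation p = 0.2).

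**Figure D4:**
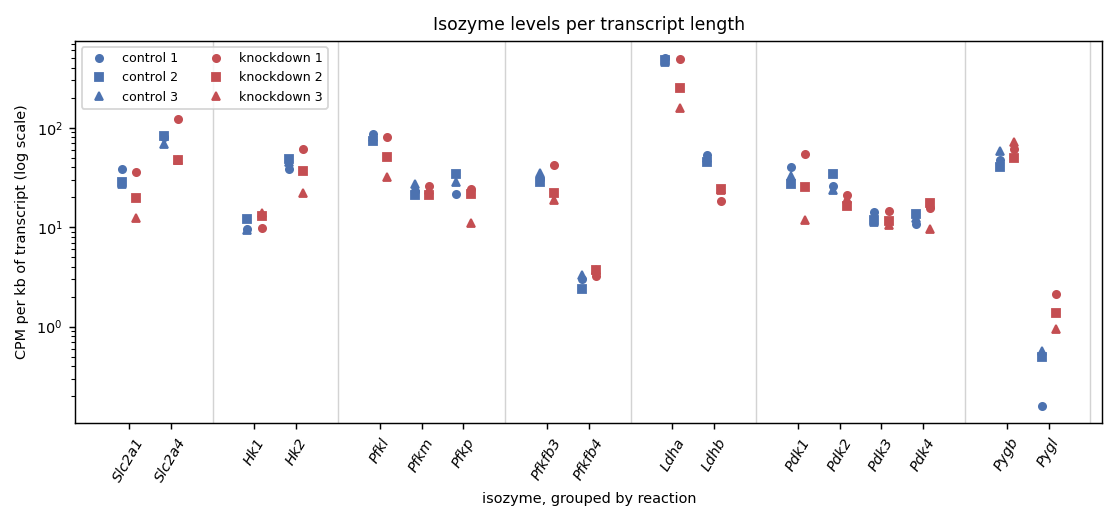
CPM per kb of transcript, on a log scale, of the isozymes of 7 steps in each control (blue) and knockdown (red) sample, with the replicate shown by the symbol. Slc2a4, Hk2, Pfkl, Pfkfb3, Ldha, Pdk1 and Pygb have the highest control mean of their step. All of these but Pygb spread at least 2-fold between knockdown replicates 1 and 3, as did Slc2a1, Pfkp and Pygl, which do not lead. Hk1, Pfkm, Pfkfb4, Ldhb and Pdk2 lie close together in the knockdown samples.

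The 4 genes of the list in the pentose phosphate pathway had fold changes below 0 (Pgd was above 0 with library sizes alone), between -0.22 and -0.82, and 0 were called by edgeR at an adjusted p of 0.1 or less, 2 had an unadjusted p under 0.05, and DESeq2 called 1, against 1.22%, 12.4% and 3.2% of all genes. Of 4 other tested enzymes of the pathway, 3 were below 0 and Rpe was at 0.12 (from -0.19 to 0.33 with 1 replicate left out). Tkt, the transketolase that links the pathway back to glycolysis, was at 533, 528 and 513 CPM in the controls and at 440, 244 and 210 CPM in the knockdown. The controls were within 1.04-fold of each other and all knockdown samples were below them, with a log2 fold change of -0.82 (SE 0.26, edgeR adjusted p = 0.227, DESeq2 adjusted p = 0.0742, range over all alternatives 0.00651 to 0.523). G6pdx, the first enzyme of the pathway and a main source of NADPH, was at 191, 185 and 165 CPM in the controls and at 169, 96.8 and 81.6 CPM in the knockdown samples, where replicate 1 fell inside the control range (log2 fold change -0.64, SE 0.25, edgeR adjusted p = 0.337). Taldo1 was at 195 to 209 CPM in the controls and at 213, 119 and 127 CPM in the knockdown. Pgd, the second NADPH-producing enzyme, was at 208 to 232 CPM in the controls and at 239, 191 and 130 CPM in the knockdown.

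Over the 5 glycogen genes the fold changes had a median of 0.26 on the log2 scale. Relative to the controls their median log2 level was 0.48, 0.06 and 0.18 in knockdown replicates 1, 2 and 3, with Gys1 and Gbe1 low and Pygb, Pygl and Ugp2 above the control mean in replicate 3. Gys1, the glycogen synthase of muscle and fat and the leading gene of this step, was at 288, 206 and 234 CPM in the controls and at 336, 201 and 142 CPM in the knockdown samples. Pygb, the main phosphorylase, was at 183, 158 and 226 CPM in the controls and at 239, 195 and 280 CPM in the knockdown, so that its highest value was in the sample where Gys1 was lowest. The ratio of Gys1 to Pygb was 1.57, 1.31 and 1.04 in the controls and 1.40, 1.03 and 0.507 in the knockdown (exact permutation p = 0.4). Pygl, the liver phosphorylase, was scarce, with 3, 3 and 10 counts in the controls and 44, 35 and 39 in the knockdown samples. On the CPM scale this was 0.480, 1.49 and 1.72 against 6.31, 4.08 and 2.86, without overlap (log2 fold change 1.89, SE 0.56, edgeR adjusted p = 0.198). Gbe1, the branching enzyme, had the widest spread of the list, at 139, 142 and 155 CPM in the controls and 183, 67.0 and 30.2 CPM in the knockdown, a 6.06-fold difference between replicates 1 and 3. Ugp2, which makes the glucose donor for glycogen, was at 81.2 to 110 CPM in the controls and at 99.1 to 131 CPM in the knockdown.

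Of 66 other genes of the same pathways, 52 were tested, and 33 had fold changes below 0, against 49.6% of all genes. Their median was -0.17, beside 0.0044 over all genes. Of the 52, 1 was called, higher in the knockdown, against 1.22% of all genes called in either direction and 0.315% called higher. This was Stbd1, a protein that tethers glycogen to membranes. It stood at 5.60, 4.46 and 5.32 CPM in the controls and at 29.7, 18.3 and 9.15 CPM in the knockdown samples. All knockdown samples were above the controls (log2 fold change 1.86, SE 0.40, edgeR adjusted p = 0.0953), but the call was lost without any 1 control or without knockdown replicate 2 (adjusted p from 0.234 to 0.361), and also, among other settings, with limma-voom, without ribosomal RNA genes in the library sizes, with chromosome medians removed or with the earlier quasi-likelihood estimates (0.106 to 0.356). Ppp1r3d, a subunit that targets protein phosphatase to glycogen, missed the threshold in edgeR (-0.88, adjusted p = 0.122) and passed it in DESeq2 (adjusted p = 0.0297, range over all alternatives 0.0145 to 0.389), at 46.3 to 57.4 CPM in the controls and 37.1, 25.4 and 22.9 CPM in the knockdown samples. Arrdc4, an arrestin-like gene that responds to glucose, likewise missed it in edgeR (1.04, adjusted p = 0.120) and passed it in DESeq2 (adjusted p = 0.0704, range over all alternatives 0.0704 to 0.373), at 7.83, 7.92 and 7.21 CPM in the controls and at 19.6, 15.2 and 12.4 CPM in the knockdown. Both lay outside the control range in all 3 knockdown samples.

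In all, 11 of the 52 had an unadjusted p under 0.05, against 12.4% of all genes, and 8 of them are not yet described. None of the 8 passed the threshold. Mlxipl, which codes for the glucose-responsive factor ChREBP, had the fold change furthest below 0 (-1.10, SE 0.39, edgeR adjusted p = 0.283), at 38.1, 47.0 and 27.1 CPM in the controls and 20.9, 23.9 and 7.47 CPM in the knockdown. Its relative Mlxip was at 0.42 (adjusted p = 0.349), so that the paralogs differed in sign. The mitochondrial pyruvate carrier subunit Mpc2 was at -0.61 (adjusted p = 0.356). The pyruvate dehydrogenase phosphatase Pdp2 (-0.82), the pentose phosphate lactonase Pgls (-0.53) and the phosphorylase kinase subunit Phkb (-0.53) had adjusted p-values between 0.198 and 0.201. All 3 lie on chromosome 8, and with the median of each chromosome removed they were at -0.42, -0.14 and -0.13, with adjusted p-values from 0.630 to 0.832. The glycogen primer gene Gyg (-0.41, adjusted p = 0.386) was on the other side of 0 once the medians of the chromosomes were removed (0.21) or with library sizes alone. The glucose phosphatase gene G6pc3 was at 0.52 (adjusted p = 0.383). Without knockdown replicate 1, 13 of the 52 were called, against 5.94% of all genes, and 12 of the 13 were lower, among them Mpc2 and Pdp2, against 3.63% of all genes.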

How the data were processed

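Ribosomal RNA-depleted stranded libraries were sequenced by the authors, who used Trim Galore 0.6.7 for trimming, STAR 2.7.10a for alignment (GRCm38) and Salmon 1.9.0 for quantification. The deposited values are estimated counts per gene, without normalization, and the annotation release is not given in the sources used here. After rounding, the groups were compared with edgeR 4.0.16 in R 4.3.3 (filterByExpr, TMM, glmQLFit with legacy = FALSE, glmQLFTest) without covariates, and p-values were adjusted by Benjamini-Hochberg over 11440 genes. The script was tested on simulated data. Total counts were 3142695 to 11073098, and a floor of 3 counts was used, which covers counting error only. Replicates of a group differed beyond sampling noise (chi-square per degree of freedom of 37.8 or more), so that the spread between samples limits the precision of abundant genes.

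Gene positions, transcript lengths and copies (blastn 2.17.0) came from GENCODE M21. Levels per length use the annotated transcript length. Isozyme ratios, on counts plus 0.5, were compared by two-sided exact permutation tests (scipy 1.17.1). DESeq2 1.42.0, limma-voom 3.58.1 and other settings were alternatives.

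The 36 genes and all lists were chosen with earlier results of these data known. Named were all 36, Rbms1, listed copies with counts, and those other pathway genes that edgeR or DESeq2 called, had an unadjusted p under 0.05 or changed most in either direction. Bpgm, Eno2 and Rpe meet none of these conditions and were picked once their values had been seen. Values in every sample were given for those of the 36 genes with such a p, without overlap or leading their step, and for others where a ratio or a spread is described, chosen after their values were seen.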

Additional observations from a re-analysis of the deposited data

How the results depend on the processing

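In all, 18 other settings were tried. The number of genes called, 140, was 268 without a filter on low counts, 430 with DESeq2, 71 with the median of each chromosome removed and 39 with a replicate block, and 12 to 696 when 1 replicate was left out. Of the 36 genes, 0 were called with library sizes alone or with a replicate block, 2 with DESeq2 and 0 to 14 with 1 replicate left out, and the median of -0.19 was then between -0.68 and -0.0085. Of the other pathway genes, in place of 1, 2 were called with library sizes alone, 3 with DESeq2 or no filter, 0 without ribosomal RNA genes, with limma-voom, the replicate block, chromosome medians removed or the earlier quasi-likelihood estimates (a setting chosen after seeing the data), and 0 to 13 with 1 replicate left out. The replicate numbers did not pair the samples (correlations of deviations of -0.14, 0.08 and -0.03 for same-numbered samples, and not every sample correlated best with its own number), and with the block the calls of Ldhb (adjusted p = 0.105), Stbd1 (0.197) and Pgk1-rs7 (0.209) were lost.

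With library sizes alone, where all genes shifted by 0.37, the log2 fold changes of Slc2a4 (0.28), Hk2 (0.24), Pfkm (0.34), Pfkfb3 (0.18), Tpi1 (0.29), Gapdh (0.10), Pgk1 (0.041), Pgam1 (0.23), Eno3 (0.28), Pkm (0.060), Pdk1 (0.19), Pdk3 (0.33), Pgd (0.14), Gys1 (0.23) and Gyg (0.0043) were above 0. Values near 0 also changed sign for Pfkm with no filter (0.0015) or chromosome medians removed (0.049). The same held for Tpi1 (0.0091) and Eno3 (0.030) with a trend of GC content and length removed. It held too for Eno3 (0.043) with chromosome medians removed, and for Slc16a1 with limma-voom (-0.11) or the block (-0.10). Gyg, which was not near 0 in the main fit (-0.41), was at 0.21 with chromosome medians removed. With 1 replicate left out, sign changes gave ranges of -0.70 to 0.14 for Slc2a4, -0.58 to 0.15 for Hk2, -0.10 to 0.10 for Pfkm, -0.61 to 0.051 for Pfkfb3, -0.35 to 0.13 for Tpi1, -0.83 to 0.088 for Gapdh, -0.90 to 0.059 for Pgk1, -0.69 to 0.19 for Pgam1, -0.39 to 0.31 for Eno3, -0.30 to 0.46 for Slc16a1, -0.85 to 0.27 for Pdk1, -0.16 to 0.089 for Pdk3 and -0.49 to 0.15 for Gys1. Outside the 36 genes, Eno2, Rpe and Gm13394 also changed sign with 1 replicate left out. The cause was not tested. Of 612 refitted values of the 36 genes, 545 kept their sign and their side of the threshold. Control replicate 2, the shallowest library, limits the precision of scarce genes.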
